A study of Mus musculus with 9 samples.

Results

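The genes described here encode the proteasome and its inducible form, the immunoproteasome. They were taken by symbol (Psma, Psmb, Psmc, Psmd, Psme, Psmf or Psmg followed by a number) from the probe sets that name a single gene, and the brightest probe set, by its mean over the 9 arrays, was used for a gene with several. The rule found 50 of the 19938 genes measured. By their known roles, 31 are constitutive subunits of the 26S proteasome, 5 are the inducible genes Psmb8, Psmb9, Psmb10, Psme1 and Psme2, and 10 are assembly chaperones, other activators or an inhibitor. A further 2 subunits, Psma8 of the testis and Psmb11 of the thymus, are restricted to other tissues, and 2 genes, Psmc3ip and Psme3ip1, match the rule by symbol without being proteasome subunits.

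The 26S proteasome degrades proteins that carry ubiquitin. Its barrel, the 20S core, consists of outer alpha rings and inner beta rings, and the proteases Psmb5, Psmb6 and Psmb7 sit in the beta rings. The 19S cap, made of a base with a ring of ATPases and a lid, binds, unfolds and strips ubiquitin from the substrate. Under interferon, cells build Psmb8, Psmb9 and Psmb10 into new cores in place of Psmb5, Psmb6 and Psmb7, and the PA28 cap made of Psme1 and Psme2 is induced as well. The resulting immunoproteasome favours peptides that fit MHC class I molecules, and in the brain it is known mainly from activated microglia and astrocytes.

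Total RNA of mouse brain tissue, called cortical in the series description, was hybridised to 9 Affymetrix arrays, 3 biological replicates in each of 3 groups. Wild-type mice (genotype B6SJLF1/J, group WT) received PBS. Transgenic 5xFAD mice received either PBS (group APP-PBS) or human amylin, a peptide hormone of the pancreas (group APP-amylin). All mice were about 5 months old, came from the same supplier and had been injected daily into the peritoneum for 10 weeks. The 5xFAD line carries mutant human APP and presenilin 1 transgenes that are driven in neurons and deposits amyloid in the brain. There was no wild-type group on amylin, so amylin was compared within the transgenic mice only. The labels do not say whether each array holds 1 animal or a pool, and p-values measure the spread between these arrays.

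Values are the deposited log2 intensities, and the array medians lay between 5.71 and 5.79. The number of arrays limits the precision: a difference between 2 groups had a standard error (SE) of 0.07 log2 in the median gene. Markers of brain regions went with the genotype. Of the measured markers of striatal projection neurons 8 of 8 were called higher in APP-PBS than in WT, while 10 of 10 thalamic and 6 of 9 hippocampal markers were called lower, and 0 of them were called between the transgenic groups. The mean log2 level of the striatal list was 7.72 to 7.99 in WT, 9.40 to 9.65 in APP-PBS and 9.40 to 9.57 in APP-amylin. That of the thalamic list was 8.47 to 8.72, 7.34 to 7.52 and 7.18 to 7.83. The cortical excitatory neuron list lay at 9.03 to 9.20, 8.89 to 9.22 and 9.06 to 9.10, and of its 9 measured genes 0 were called higher and 2 lower in APP-PBS than in WT, with differences from -0.62 to 0.57 log2. The part of these regional differences in the differences of the proteasome genes from WT was not tested.

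Because a single inducible protease stands out in the comparison of the transgenic mice with WT, the promoter of that gene (Psmb8) is shown with those of its neighbour Psmb9 and of Psmb5, the constitutive subunit it replaces. The sequences are the 250 bases before the annotated start, 5′ to 3′ on the strand of the gene, from RefSeq in build GRCm38.p6: chr17:34197945-34198194 on the plus strand for Psmb8, chr17:34187331-34187580 on the minus strand for Psmb9 and chr14:54617996-54618245 on the minus strand for Psmb5. Capitals mark a match to TGACNNNGC, the core of the antioxidant response element (ARE).
Psmb8: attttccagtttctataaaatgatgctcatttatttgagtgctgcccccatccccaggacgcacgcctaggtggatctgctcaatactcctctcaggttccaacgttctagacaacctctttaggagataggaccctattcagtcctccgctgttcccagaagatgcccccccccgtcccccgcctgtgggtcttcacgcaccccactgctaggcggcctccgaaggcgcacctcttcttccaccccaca
Psmb9: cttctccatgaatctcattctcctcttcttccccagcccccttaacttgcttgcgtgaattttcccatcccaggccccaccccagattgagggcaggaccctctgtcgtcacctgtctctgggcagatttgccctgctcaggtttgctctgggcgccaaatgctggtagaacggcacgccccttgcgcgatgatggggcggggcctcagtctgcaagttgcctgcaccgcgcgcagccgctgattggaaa
Psmb5: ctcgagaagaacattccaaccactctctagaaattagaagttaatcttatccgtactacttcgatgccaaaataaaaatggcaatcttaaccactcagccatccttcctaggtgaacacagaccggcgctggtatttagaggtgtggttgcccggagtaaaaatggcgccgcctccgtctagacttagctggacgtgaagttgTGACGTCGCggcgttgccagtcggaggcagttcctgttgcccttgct

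The Psmb5 sequence holds 1 ARE match, TGACGTCGC, at positions -47 to -39 from the start, and the Psmb6 promoter holds another, TGACGGAGC, at -9 to -1. No match lies in the Psmb8 or Psmb9 sequence. Both strands were searched over 300 bases, 250 before and 50 after the start, and 42 of the 50 genes had a promoter in the table. The ARE letters occur in 12.4% of all 32851 promoters of this length and in 6 of the 42 genes (Psmb5, Psmb6, Psmc6, Psmd12, Psmd9 and Psme4). The core of the interferon-stimulated response element, GAAA repeated after any 2 bases, occurs in 3.44% of promoters and in 5 of the 42, of which Psme1 is the 1 inducible gene, with a match at positions 10 to 19 after the start. These matches describe letters in a window and are not measured binding sites. Psmd7, Psmb2, Psmb7, Psmg2, Psma8, Psmd3, Psmc3 and Psmb1 had no promoter in the table.

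The comparison of APP-PBS with WT sets transgenic against wild-type mice, both on PBS, and the regional markers above also differ between them. Psmb8 rose, and it was the 1 gene of the 50 that passed the test (limma, Benjamini-Hochberg adjusted p under 0.05 over all genes), against 8.58% of all genes called. By direction, 3.66% of all genes were called higher and 4.92% lower. The 31 constitutive subunits lay close to their WT levels, with a median difference of 0.023 log2, while the median of the 5 inducible genes was 0.17 and that of all genes was -0.0099. At an unadjusted p under 0.05 there were 9 of the 50, against 21.2% of all genes: 3 of 5 inducible genes, 4 of 10 assembly and regulator genes and 2 of 31 constitutive subunits. Of these 9, 6 were higher, against 9.11% of all genes, and 3 were lower, against 12.1%. In bulk tissue, more cells of a type and more RNA per cell cannot be told apart.

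Psmb8 (probe set 10444258) encodes the inducible subunit beta 5i, the chymotrypsin-like protease of the immunoproteasome. Its log2 intensity was 5.48, 5.63 and 5.88 on the WT arrays, 6.15, 6.57 and 6.53 on the APP-PBS arrays and 6.05, 6.51 and 6.21 on the APP-amylin arrays. Every transgenic array lay above every WT array, and the transgenic groups overlapped. The group means were 5.66 ± 0.20 (SD, n = 3) in WT, 6.42 ± 0.23 in APP-PBS and 6.25 ± 0.24 in APP-amylin. The difference of APP-PBS from WT was 0.75 ± 0.15 log2 (SE), or 1.69-fold, with a limma adjusted p of 0.015 and a 95% interval of 0.42 to 1.09. Psmb8 did not pass when some arrays were left out singly. The limma adjusted p was 0.07 without WT replicate 1 (0.66 log2) and 0.0535 without WT replicate 2 (0.74). It was 0.057 without APP-PBS replicate 2 (0.68) and 0.0624 without APP-PBS replicate 3 (0.70). Calls over all genes also fell in these settings, from 1710 to 863, 1126, 1145 and 969. Over the 17 alternative settings the difference ran from 0.66 to 0.89 log2 and the adjusted p from 0.00336 to 0.07.

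Psmb9 (10450145), the inducible subunit beta 1i, is encoded near Psmb8 in the MHC region. It read 6.75, 6.62 and 6.80 on the WT arrays, 6.86, 6.87 and 6.98 on the APP-PBS arrays and 6.91, 6.83 and 6.75 on the APP-amylin arrays. The APP-PBS arrays lay above the WT arrays without overlap, and the APP-amylin arrays overlapped both. The difference of APP-PBS from WT was 0.18 ± 0.07 log2 (SE) and did not pass (adjusted p = 0.145). Psmb10 (10581378), the inducible subunit beta 2i, read 8.08, 8.04 and 8.00 in WT, 7.93, 8.10 and 7.97 in APP-PBS and 7.78, 7.90 and 7.96 in APP-amylin. Here APP-PBS and WT overlapped, with a difference of -0.04 ± 0.07 log2 (adjusted p = 0.819). The 95% intervals of Psmb9 (0.03 to 0.33) and Psmb10 (-0.19 to 0.11) lie below that of Psmb8, and the differences between these genes were not tested directly.

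The PA28 cap opens the gate of the 20S core without ubiquitin. Its alpha subunit Psme1 (10415282) read 8.91, 8.88 and 8.96 in WT, 9.20, 9.01 and 9.04 in APP-PBS and 9.04, 9.05 and 8.95 in APP-amylin. The APP-PBS arrays were all above the WT arrays, by 0.17 ± 0.06 log2 (SE), and the difference did not pass (adjusted p = 0.148). The beta subunit Psme2 (10420030) read 6.46, 6.71 and 6.66 in WT, 6.66, 6.80 and 6.68 in APP-PBS and 6.66, 6.75 and 6.56 in APP-amylin, and all groups overlapped. Its difference of APP-PBS from WT was 0.10 ± 0.08 log2 (adjusted p = 0.531). A further probe set that names both Psme2 and its close relative Psme2b stands outside the rule, since it does not name a single gene.

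**Figure D1:**
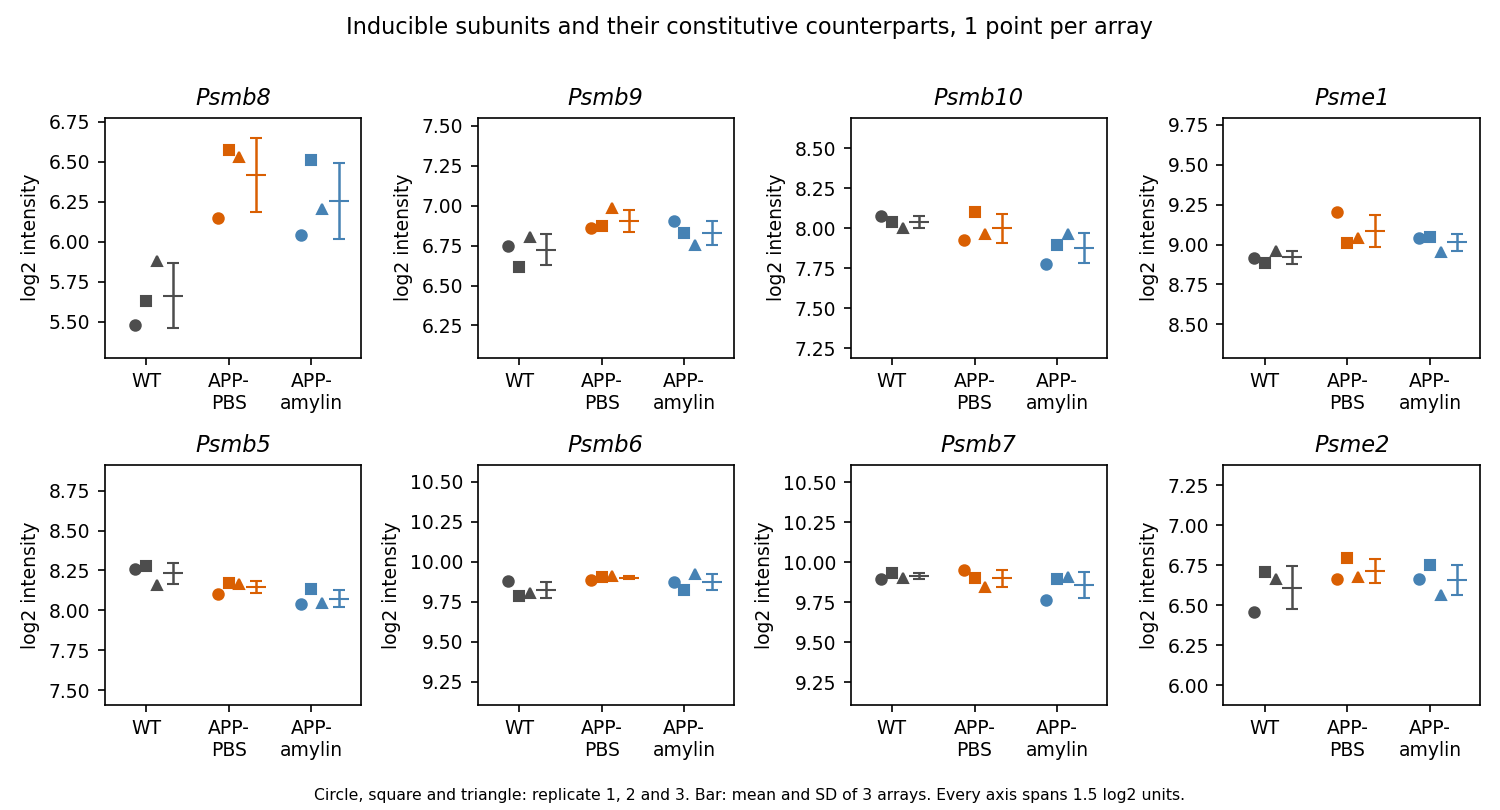
Log2 intensity of the 5 inducible genes and of the constitutive proteases Psmb5, Psmb6 and Psmb7 on each of the 9 arrays (points), with the mean and SD of the 3 arrays of a group beside them; every axis spans the same width in log2 units. The 3 WT arrays of Psmb8 (5.48 to 5.88) lie below all 6 transgenic arrays (6.05 to 6.57), while the groups lie close together for Psmb6 and Psmb7.

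The constitutive counterparts of the inducible proteases did not pass the test. Psmb5 (10419810), the constitutive chymotrypsin-like protease, read 8.26, 8.28 and 8.16 in WT, 8.10, 8.17 and 8.16 in APP-PBS and 8.04, 8.13 and 8.05 in APP-amylin. Its APP-PBS arrays overlapped WT at the lower edge, with a difference of -0.09 ± 0.05 log2 (SE, adjusted p = 0.406). Psmb6 (10377851), the caspase-like protease, read 9.88, 9.79 and 9.81 in WT, 9.89, 9.90 and 9.91 in APP-PBS and 9.87, 9.82 and 9.93 in APP-amylin. The APP-PBS arrays were above WT without overlap, by 0.08 ± 0.05 log2 (adjusted p = 0.443). Psmb7 (10482229), the trypsin-like protease, read 9.90, 9.93 and 9.90 in WT, 9.95, 9.90 and 9.85 in APP-PBS and 9.77, 9.90 and 9.91 in APP-amylin. Its groups overlapped (-0.01 ± 0.05 log2, adjusted p = 0.945).

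Each inducible protease takes the place of a constitutive one, so the log2 difference within an array, inducible minus constitutive, was compared between groups, in 9 comparisons with an exact 2-sided permutation test over the 20 assignments of 6 arrays. With 3 arrays against 3 its smallest possible p is 0.1. Psmb8 minus Psmb5, relative to the WT mean, was -0.21, -0.08 and 0.29 on the WT arrays, 0.62, 0.97 and 0.94 on the APP-PBS arrays and 0.57, 0.95 and 0.73 on the APP-amylin arrays. All transgenic arrays lay above all WT arrays, as for Psmb8 alone. The pair reuses the Psmb8 values, which by themselves differed by 0.75 log2 in APP-PBS, so it is not a separate observation. The shift was 0.84 log2 in APP-PBS (exact permutation p = 0.1, adjusted 0.3) and 0.75 in APP-amylin (exact permutation p = 0.1, adjusted 0.3). Psmb9 minus Psmb6 shifted by 0.11 in APP-PBS (exact permutation p = 0.3) and Psmb10 minus Psmb7 by -0.03 (exact permutation p = 0.9), with overlapping arrays. In APP-amylin against WT, Psmb10 minus Psmb7 shifted by -0.11, with APP-amylin below WT without overlap (exact permutation p = 0.1, adjusted 0.3). Psmb9 minus Psmb6 shifted by 0.06 there, with overlapping arrays (exact permutation p = 0.6).

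**Figure D2:**
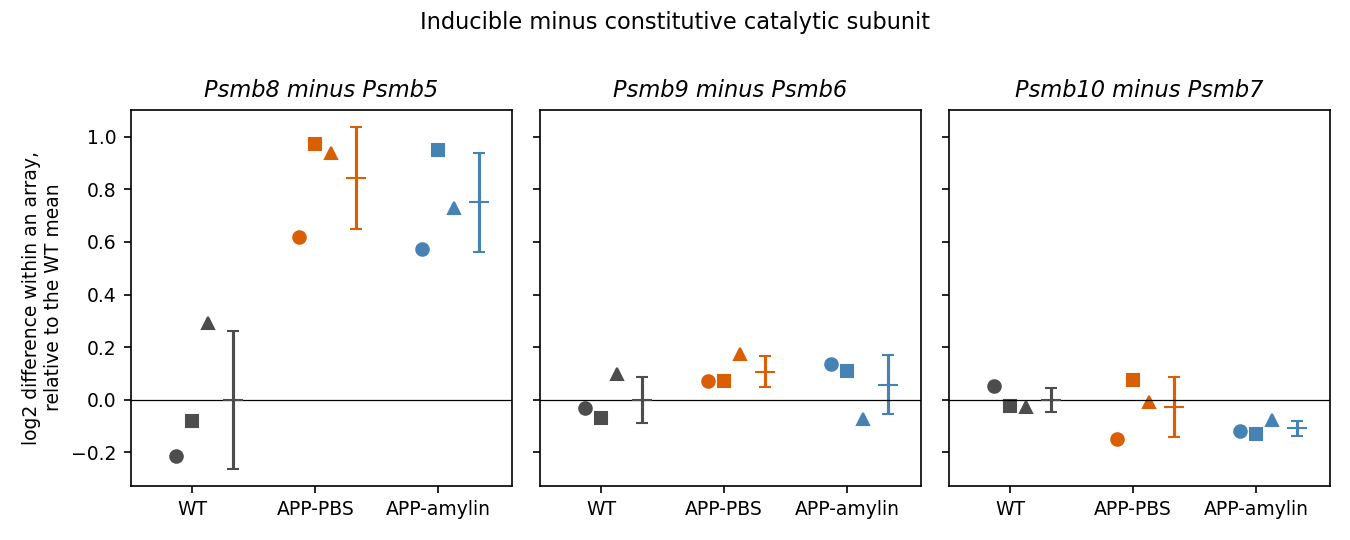
Log2 difference between an inducible protease and the constitutive protease it replaces on each array, relative to the WT mean (points), with the mean and SD of 3 arrays. Psmb8 minus Psmb5 lies at 0.57 to 0.97 on the 6 transgenic arrays and at -0.21 to 0.29 on the WT arrays, while the other pairs stay between -0.15 and 0.17 on all 9.

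Among the beta subunits without protease activity, Psmb2 (10508182) had the largest difference of the constitutive subunits. It read 8.68, 8.77 and 8.80 in WT, 8.97, 9.07 and 8.84 in APP-PBS and 8.84 on each APP-amylin array. APP-PBS lay above WT without overlap, by 0.21 ± 0.06 log2 (SE), and missed the threshold (adjusted p = 0.0849). The deposited Psmb2 values of the APP-amylin arrays are identical (8.83622, SD 0), and APP-PBS replicate 3 has the same value. The SE pools the spread of all groups and so includes this SD of 0. The other 3 beta subunits without protease activity (Psmb1, Psmb3 and Psmb4) differed by 0.02 to 0.05. Of the 7 alpha ring subunits, which gate the barrel, 5 had a higher and 2 a lower mean in APP-PBS, from -0.07 for Psma3 to 0.10 for Psma1. The 6 ATPases of the base (Psmc1 to Psmc6), which unfold the substrate, ran from -0.03 to 0.09 log2. The base subunits Psmd1 and Psmd2, which form its scaffold, and the ubiquitin receptor Psmd4 ran from -0.04 to 0.03.

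The lid holds the deubiquitinase Psmd14 and its scaffold. Of the 8 lid subunits that the symbol rule takes, 3 had a higher and 5 a lower mean in APP-PBS than in WT, where 45.9% of all genes had a higher one. The count was 4 of 8 higher with quantile normalization repeated and 5 of 8 without APP-PBS replicate 1. The small lid subunit Sem1, which the rule does not take, is described with the partners. The largest difference among the 8 was that of Psmd8 (10561679), at 9.21, 9.19 and 9.18 in WT, 9.32, 9.33 and 9.30 in APP-PBS and 9.26, 9.35 and 9.43 in APP-amylin. WT was the lowest group without overlap, and the difference of APP-PBS from WT, 0.12 ± 0.05 log2 (SE), did not pass (adjusted p = 0.226). Over all 31 constitutive subunits the 95% intervals of the difference of APP-PBS from WT reached from -0.21 (Psmb5) to 0.35 (Psmb2). Taken gene by gene, without adjustment for their number, these limits correspond to 1.15-fold lower and 1.27-fold higher in APP-PBS. Of the 31, 20 had a higher mean in APP-PBS (45.9% of all genes did), and 24 did when quantile normalization was repeated, which moved the median from 0.023 to 0.052. These subunits are brighter than most genes: 74.3% of all genes had a lower mean than Psma5, the dimmest, and 97.6% than Psma3, the brightest. Shares over all genes, here and below, therefore include many dimmer genes. A share over genes of like brightness was not computed.

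Of the 10 assembly and regulator genes 5 had a higher and 5 a lower mean in APP-PBS, and 0 of 10 passed. Psmf1 (10488575) encodes PI31, an inhibitor of the isolated 20S core that also serves as a transport adaptor of proteasomes. It read 8.02, 7.86 and 7.95 in WT, 7.80, 7.70 and 7.73 in APP-PBS and 7.77, 7.70 and 7.80 in APP-amylin, so that both transgenic groups lay below WT without overlap. The difference of APP-PBS from WT was -0.20 ± 0.06 log2 (SE, adjusted p = 0.0614). Psmd5 (10481920), a chaperone that holds the base during assembly, read 9.15, 9.09 and 9.10 in WT, 8.85, 9.01 and 8.85 in APP-PBS and 8.94, 8.89 and 9.07 in APP-amylin. It too was lower in both transgenic groups without overlap, by -0.21 ± 0.06 log2 in APP-PBS (adjusted p = 0.0804).

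Psme3 (10381345) is PA28 gamma, a nuclear cap that interferon does not induce. It read 9.56, 9.52 and 9.56 in WT, 9.36, 9.47 and 9.39 in APP-PBS and 9.62, 9.58 and 9.50 in APP-amylin. The APP-PBS arrays lay below both other groups without overlap, with a difference from WT of -0.14 ± 0.05 log2 (SE, adjusted p = 0.149). Psme4 (10374934), or PA200, a nuclear cap without ATPase, read 7.83, 8.05 and 7.97 in WT, 8.13, 8.06 and 8.14 in APP-PBS and 8.19, 8.05 and 8.19 in APP-amylin. Its difference of APP-PBS from WT was 0.16 ± 0.07 log2 (adjusted p = 0.202). The 20S chaperones Psmg1 to Psmg4 differed by -0.01 to 0.10. The subunits of other tissues had low levels in all groups, with a mean over the 9 arrays of 4.38 log2 for Psma8 and 4.96 for Psmb11, where 20.6% and 28.4% of all genes had a lower mean.

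Counted by overlap alone, 11 of 50 genes lay higher on all 3 APP-PBS arrays than on all 3 WT arrays, against 11.2% of all genes, and 7 of 50 lay lower, against 15.6%. The higher ones were 3 of 5 inducible genes, 6 of 31 constitutive subunits and 2 of 10 assembly and regulator genes. The lower ones included 4 of 10 assembly and regulator genes and 2 of 31 constitutive subunits.

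**Figure D3:**
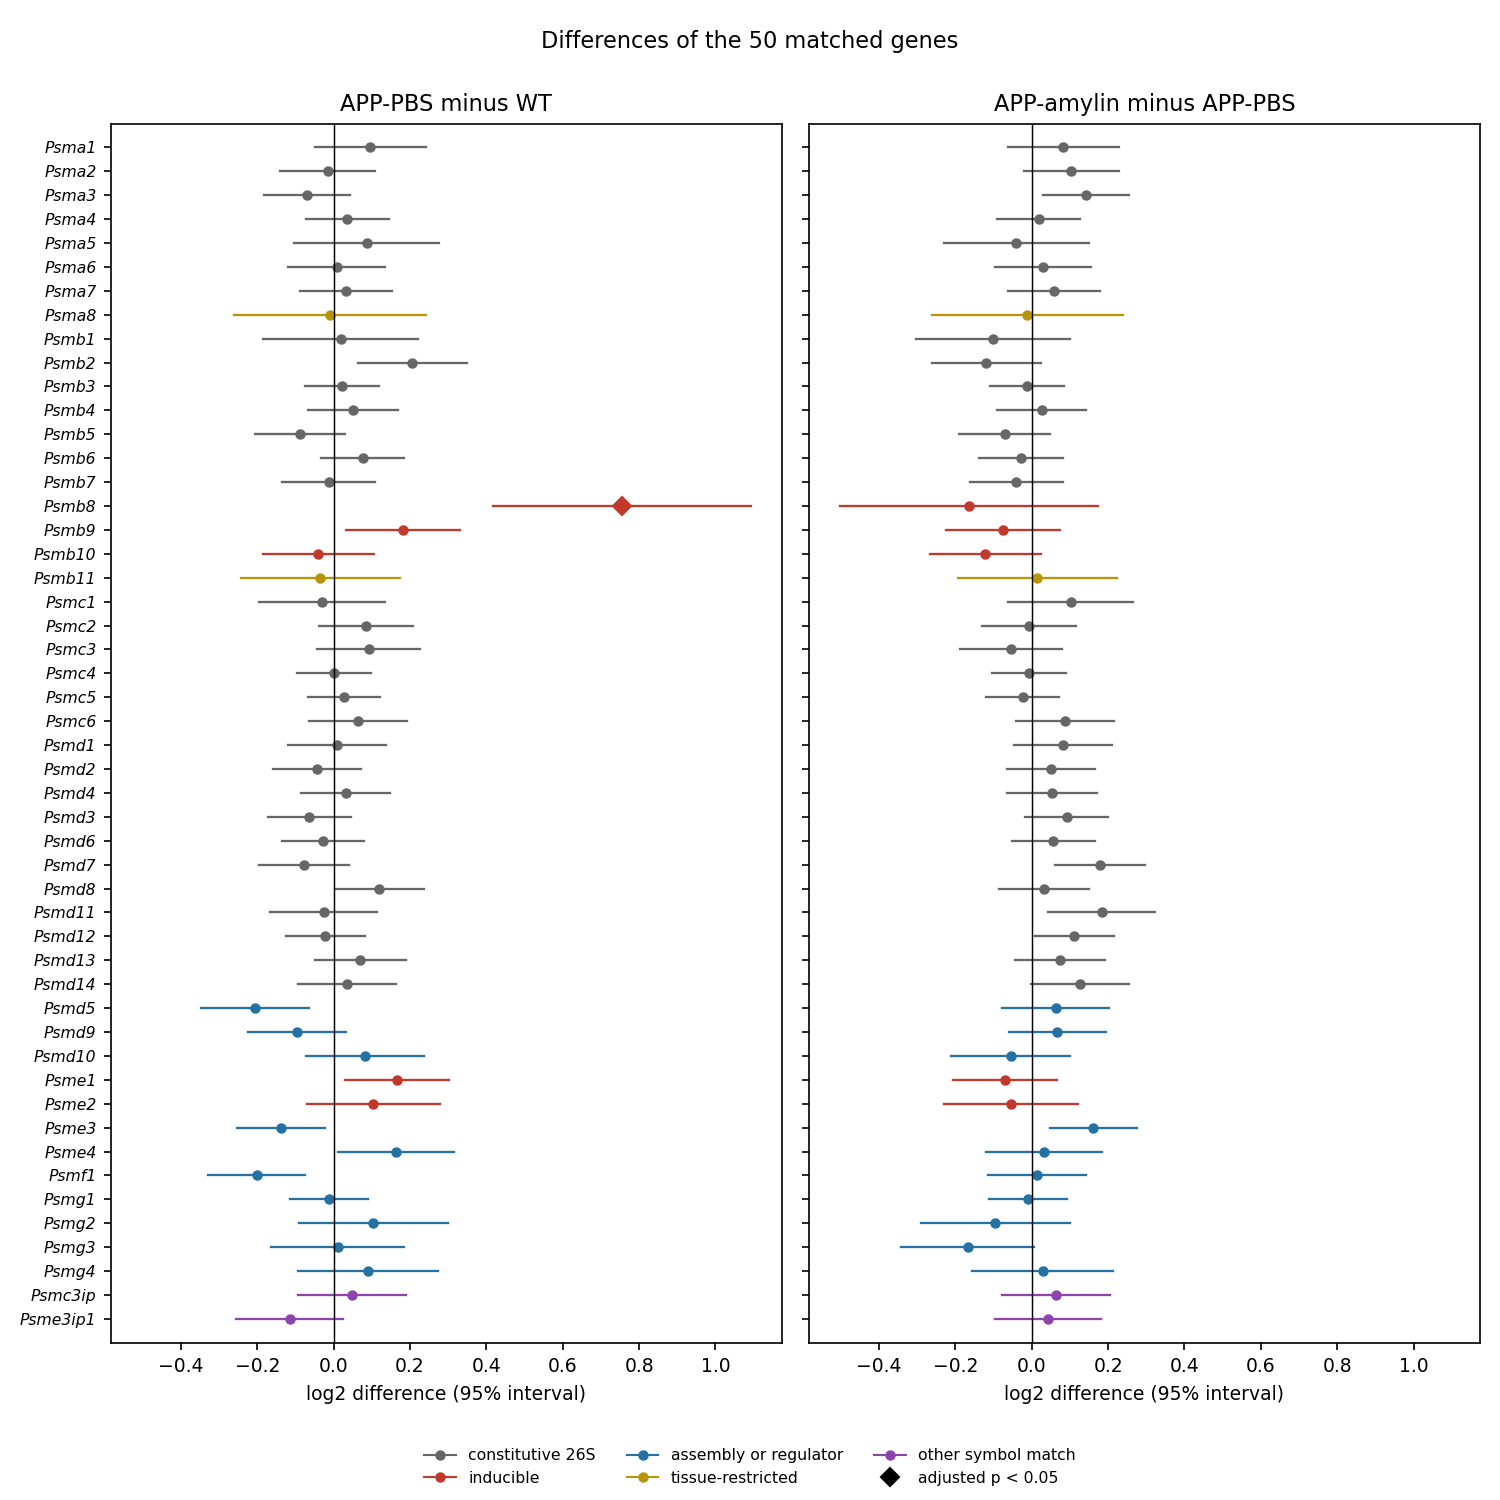
Log2 difference of each of the 50 genes with its 95% interval, for APP-PBS minus WT (left) and APP-amylin minus APP-PBS (right), coloured by class; the diamond marks an adjusted p under 0.05. On the left Psmb8 stands at 0.75, and the other 49 genes lie between -0.21 and 0.21; on the right all 50 lie between -0.17 and 0.18.

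Partners of the proteasome that the symbol rule does not take were read from a list of 24 genes, of which 17 were measured. In APP-PBS 2 of 17 rose and 0 fell, and the median difference was -0.05 log2. Pomp, the maturation protein that assembles the beta rings and is needed for new immunoproteasomes, read 9.24, 9.43 and 9.39 in WT, 9.59, 9.72 and 9.62 in APP-PBS and 9.56, 9.61 and 9.55 in APP-amylin. It rose by 0.29 ± 0.06 log2 (SE) in APP-PBS, or 1.22-fold (adjusted p = 0.0202), with all transgenic arrays above WT. Sem1, a small subunit of the lid, read 8.65, 8.77 and 8.63 in WT, 8.91, 8.96 and 8.90 in APP-PBS and 8.73, 8.85 and 8.78 in APP-amylin. It rose by 0.24 ± 0.05 log2 in APP-PBS, or 1.18-fold (adjusted p = 0.025), and APP-amylin lay between both groups, overlapping WT.

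Nfe2l1 encodes the transcription factor that raises constitutive proteasome genes when proteasomes fail, and Nfe2l2 its relative in the oxidative stress response. Of 13 measured genes of this list 2 rose and 0 fell in APP-PBS (median -0.02). Nfe2l2 rose by 0.65 ± 0.08 log2 (SE, adjusted p = 0.00157) and Hmox1, a haem-degrading target of it, by 0.50 ± 0.12 (adjusted p = 0.0296). Nfe2l1 differed by -0.07 ± 0.05 (adjusted p = 0.546).

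Genes of the steps after proteasomal cleavage were read as well. Of 11 measured genes of class I peptide loading 2 rose and 0 fell: B2m, the light chain of class I molecules, by 0.98 ± 0.14 log2 (SE, adjusted p = 0.00259) and Erap1, which trims peptides in the endoplasmic reticulum, by 0.41 ± 0.06 (adjusted p = 0.0031). The peptide transporter genes Tap1 and Tap2, which lie in the MHC region with Psmb8 and Psmb9, differed by 0.18 ± 0.07 (adjusted p = 0.214) and -0.11 ± 0.09 (adjusted p = 0.562). Of 14 measured genes of interferon signalling 5 rose and 0 fell, with a list median of -0.01. They were the transcription factors Irf8 (0.80 ± 0.10 log2, SE) and Irf9 (0.44 ± 0.08), the receptor chains Ifnar2 (0.52 ± 0.07) and Ifngr1 (0.43 ± 0.07) and the kinase Jak2 (0.32 ± 0.07). Irf1, which binds the promoters of immunoproteasome genes, differed by 0.21 ± 0.12 (adjusted p = 0.378).

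Microglial markers moved with Psmb8. Of 11 measured markers 10 rose and 0 fell in APP-PBS, with a list median of 1.11 log2, led by Tyrobp (2.55 ± 0.22) and Cd68 (2.47 ± 0.15). The mean log2 level of the list was 7.34 to 7.37 in WT, 8.38 to 8.93 in APP-PBS and 8.29 to 8.66 in APP-amylin. Of 8 astrocyte markers 1 rose (Gfap, by 1.63 ± 0.14) and of 7 endothelial markers 1 rose (Slco1a4, by 0.63 ± 0.08), while 4 of 10 neuronal and 3 of 7 oligodendrocyte markers fell. Of 10 markers of T cells and NK cells Cd4 rose (0.90 ± 0.07). The median difference of this list was 0.02 log2, and 7 of the 10 had a higher mean in APP-PBS. Among those that did not pass, the mean level in APP-PBS was 4.93 log2 for Cd3e, 4.93 for Cd8a, 4.28 for Nkg7 and 3.68 for Gzmb. The part of these cell types in the rise of Psmb8 was not tested.

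The comparison of APP-amylin with APP-PBS asks what amylin changed in the transgenic mice. None of the 50 genes passed the test in limma, against 0.00502% of all genes (Fkbp5 alone), and 5 of 50 had an unadjusted p under 0.05, against 6.9% of all genes. All 5 had a higher mean under amylin, against 3.72% of all genes, and 0 had a lower one, against 3.18%: the lid subunits Psmd7, Psmd11 and Psmd12, the alpha subunit Psma3 and the activator Psme3. The 5 inducible genes all had a lower mean under amylin, with a median of -0.076 log2 and no difference that passed. That median was -0.038 without APP-amylin replicate 3. The 31 constitutive subunits had a median of 0.051 and all genes one of 0.00064. With quantile normalization repeated the constitutive median was 0.012.

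All 8 lid subunits taken by the rule had a higher mean in APP-amylin than in APP-PBS, from 0.03 (Psmd8) to 0.18 log2 (Psmd11) with a median of 0.10, where 50.3% of all genes had a higher mean. All 8 did so with either other scaling of the arrays, and 7 of 8 did without APP-amylin replicate 3. Sem1, the lid subunit outside the rule, went the other way: with the values above, APP-amylin lay below APP-PBS without overlap, by -0.14 ± 0.05 log2 (SE, limma adjusted p = 0.706). Psmd7 (10581560), the partner of the deubiquitinase Psmd14, read 9.28, 9.40 and 9.37 on the APP-PBS arrays, 9.60, 9.49 and 9.51 on the APP-amylin arrays and 9.41, 9.41 and 9.47 in WT. The APP-amylin arrays were the highest without overlap, and APP-PBS the lowest. The difference of APP-amylin from APP-PBS was 0.18 ± 0.05 log2 (SE, limma adjusted p = 0.664).

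Psmd11 (10379467), a scaffold subunit of the lid that stabilises its bond to the base, read 9.34, 9.43 and 9.42 in APP-PBS, 9.45, 9.61 and 9.68 in APP-amylin and 9.41, 9.43 and 9.43 in WT. Its APP-amylin arrays lay above all 6 others, by 0.18 ± 0.06 log2 (SE) from APP-PBS (limma adjusted p = 0.675). Psmd12 (10382139), another scaffold subunit, read 9.20, 9.28 and 9.23 in APP-PBS, 9.39, 9.30 and 9.34 in APP-amylin and 9.26, 9.27 and 9.24 in WT. The difference was 0.11 ± 0.05 log2 (limma adjusted p = 0.712), again with APP-amylin above the 6 other arrays. Psmd14 (10472300), the deubiquitinase, read 9.46, 9.34 and 9.37 in APP-PBS, 9.53, 9.44 and 9.58 in APP-amylin and 9.31, 9.35 and 9.41 in WT. The transgenic groups overlapped for Psmd14, with a difference of 0.13 ± 0.06 log2 (limma adjusted p = 0.721).

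Of the alpha ring, 6 of 7 subunits had a higher mean under amylin, and 5 of 7 did with quantile normalization repeated. Psma3 (10543783) read 10.32, 10.21 and 10.25 in APP-PBS, 10.44, 10.33 and 10.43 in APP-amylin and 10.35, 10.32 and 10.32 in WT. APP-amylin lay above APP-PBS without overlap, by 0.14 ± 0.05 log2 (SE, limma adjusted p = 0.687). The gene has 2 further single-gene probe sets, 10396193 and 10419711, and they gave 0.13 and 0.15 for the same comparison, also without overlap. Probe sets of one gene can share sequence and are not independent.

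The caps and regulators gave no common direction. Psme3 had the reverse order of means in this comparison: with the values above, APP-amylin lay above APP-PBS by 0.16 ± 0.05 log2 (SE, limma adjusted p = 0.664). Both Psme3 differences use the same APP-PBS arrays, so they are not independent. Psmg3 (10535184), a chaperone of the alpha ring, had the largest lower value, with 5.22, 5.29 and 5.25 in APP-PBS, 5.15, 5.22 and 4.89 in APP-amylin and 5.23, 5.26 and 5.23 in WT. That difference, -0.17 ± 0.08 log2, overlapped between groups and turned on APP-amylin replicate 3, without which it was -0.07. Psmf1 and Psmd5 differed by 0.01 ± 0.06 and 0.06 ± 0.06 log2 between the transgenic groups.

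The inducible genes differed between the transgenic groups by -0.16 ± 0.15 log2 for Psmb8 (SE, limma adjusted p = 0.85), -0.08 ± 0.07 for Psmb9 (0.842), -0.12 ± 0.07 for Psmb10 (0.765), -0.07 ± 0.06 for Psme1 (0.843) and -0.05 ± 0.08 for Psme2 (0.906). All 5 overlapped between APP-amylin and APP-PBS. The 95% interval of Psmb8 ran from -0.50 to 0.17 log2, and with 1 array left out its difference ran from -0.30 (without APP-PBS replicate 1) to -0.06 (without APP-amylin replicate 1). Differences of the microglial markers lay from -0.69 to -0.10 log2, with a median of -0.24 and 0 of 11 passing. For the 31 constitutive subunits the 95% intervals reached from -0.30 (Psmb1) to 0.32 (Psmd11). Gene by gene, without adjustment for their number, these limits correspond to 1.23-fold down and 1.25-fold up under amylin. Psmb1 read 8.93, 9.32 and 9.28 on APP-amylin replicates 1, 2 and 3. In the setting with array weights, APP-amylin replicate 1 had the lowest weight of the 9 arrays (0.38). By overlap alone, 6 of 50 genes lay higher in APP-amylin than in APP-PBS, against 5.49% of all genes, and 1 lay lower (Psmc5, by -0.02), against 3.81%. The catalytic pairs shifted by -0.09 (Psmb8 minus Psmb5, exact permutation p = 0.6), -0.05 (Psmb9 minus Psmb6, exact permutation p = 0.6) and -0.08 (Psmb10 minus Psmb7, exact permutation p = 0.4).

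APP-amylin was also compared with WT, with the same WT arrays as above. In this comparison 0 of 50 genes passed in limma, against 5.21% of all genes (2.35% higher and 2.86% lower). At an unadjusted p under 0.05 there were 12 of 50, against 19.2%: 8 higher, against 8.73%, and 4 lower, against 10.4%. Psmb8 came closest, at 0.59 ± 0.15 log2 (SE) or 1.51-fold (adjusted p = 0.0557). It passed when the lowest 25% of genes were left out (0.0418), with a trended and robust prior (0.0444), with array weights (0.0219), with a replicate block (0.0135) and without APP-PBS replicate 1 (0.0384), within a range of 0.0135 to 0.213 over the 17 alternatives. Psmb9 differed by 0.11 ± 0.07 log2, Psme1 by 0.10 ± 0.06 and Psme2 by 0.05 ± 0.08. Psmb10 lay below WT without overlap, by -0.16 ± 0.07 log2 (limma adjusted p = 0.209).

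Of the constitutive subunits, 27 of 31 had a higher mean in APP-amylin than in WT (45.9% of all genes did), with a median of 0.073 log2 and with 27 of 31 also when quantile normalization was repeated. The share over all genes again includes many dimmer genes. For 12 of 31 the APP-amylin arrays lay above WT without overlap, and for all members this count was 13 of 50, against 10.8% of all genes. They included 7 of the 8 lid subunits of the rule, while Sem1 overlapped WT (0.10 ± 0.05 log2). Psmd14 differed by 0.16 ± 0.06 log2 (SE), Psmd11 by 0.16 ± 0.06, Psmd8 by 0.15 ± 0.05 and Psmd13 (10558723), a further lid subunit, by 0.14 ± 0.05, with adjusted p from 0.143 to 0.204 in limma. The ATPase Psmc6 (10414288) differed by 0.15 ± 0.06 and the alpha subunit Psma1 (10567072) by 0.18 ± 0.06. Psmb5 went the other way, with APP-amylin below WT without overlap by -0.16 ± 0.05 (adjusted p = 0.131). In the other direction 5 of 50 genes lay lower without overlap, against 12.3% of all genes, and Psmf1 (-0.19 ± 0.06, adjusted p = 0.101) and Psmd5 (-0.14 ± 0.06, adjusted p = 0.247) were among them.

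**Figure D4:**
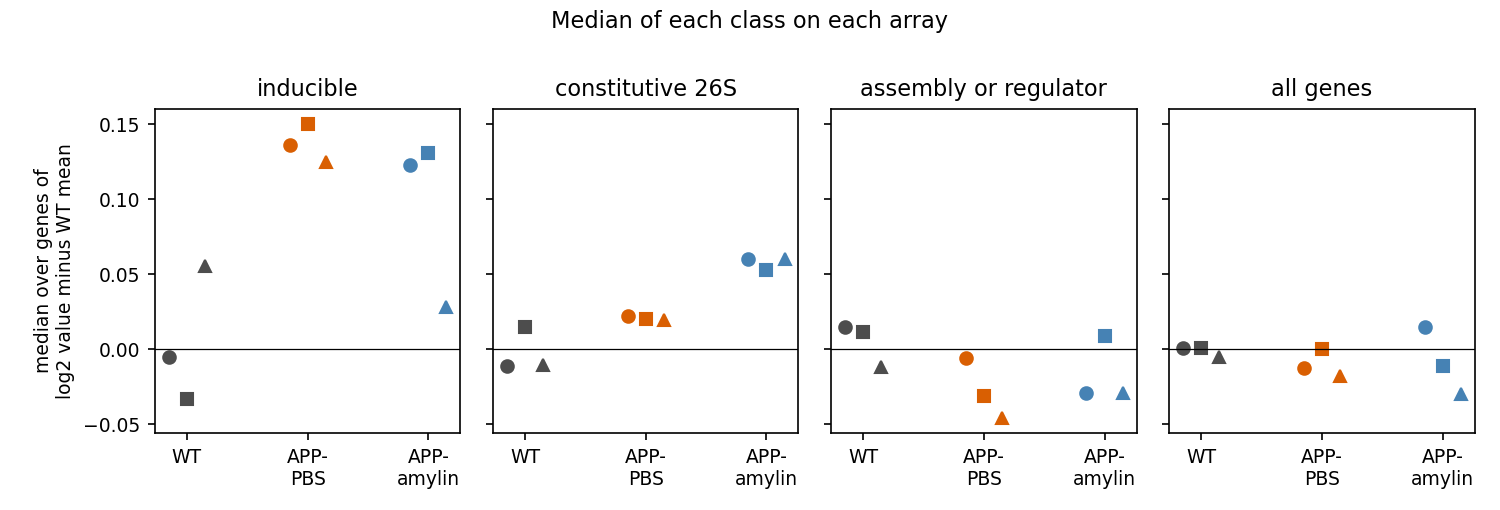
Median over the genes of a class of the log2 value minus the WT mean, for each of the 9 arrays. The 31 constitutive subunits lie at -0.01 to 0.01 on the WT arrays, 0.02 on the APP-PBS arrays and 0.05 to 0.06 on the APP-amylin arrays; the 5 inducible genes lie at -0.03 to 0.06, 0.12 to 0.15 and 0.03 to 0.13.

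The class medians on single arrays show the scale of these shifts. The constitutive median was 0.05 to 0.06 log2 above the WT mean on the APP-amylin arrays and 0.02 on each APP-PBS array, and that of all genes lay between -0.03 and 0.01 on all 9. The inducible median reached 0.12 to 0.15 on the APP-PBS arrays, and on the APP-amylin arrays it was 0.12, 0.13 and 0.03. Both are smaller than the difference of Psmb8 alone. Repeating quantile normalization moved the constitutive median of APP-PBS against WT from 0.023 to 0.052. It moved that of APP-amylin against APP-PBS from 0.051 to 0.012. With the arrays centred on their median, these medians were 0.025 and 0.057. The step at which the constitutive subunits sit higher thus changed with repeated quantile normalization, and with centring it did not.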

How the data were processed

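Per the submitters' processing notes, the authors made the deposited log2 values with RMA in the R package oligo (versions not given), which corrects the background of each array, equalises quantiles and summarises probe sets. Of 35556 probe sets, 21789 named 1 gene, 1621 several and 12146 none, and 19938 genes were kept, without a filter on low values. The 3 contrasts came from 1 limma fit (version 3.58.1, R 4.3.3) of all 9 arrays, whose untrended prior added 3.53 degrees of freedom to the 6 residual ones, adjusted by Benjamini-Hochberg over all 19938 genes and called under 0.05. The fit was tested on simulated data, drawn as independent normal values with the same spread in all groups. These arrays need not meet that, so the simulation is no check of the values given here. Catalytic pairs had an exact permutation test.

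The members, the 14 lists (164 genes, 144 measured) and the tests were chosen with earlier results of these data known. Values per array are given for the inducible genes and their counterparts, called genes, and up to 4 more with the smallest p in APP-PBS against WT and in APP-amylin against APP-PBS. Other members with values per array, and Fkbp5, Nfe2l1, Tap1, Tap2, Irf1, Cd8a, Gzmb and Nkg7, were picked after their values were seen, as were Pomp and Sem1 for values per array. Promoters came from RefSeq (GRCm38.p6) by symbol. Probe coordinates are not printed, because no source used here names the build of the annotation. Alternatives were quantile normalization repeated, centring, leaving out the lowest 25% of genes, a trended and robust prior, fits of 2 groups, array weights, a replicate block, averaging a gene's probe sets, and leaving out each array in turn.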

Additional observations from a re-analysis of the deposited data

Results flagged for a closer look

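Probe set 10385511 names both Psme2b and Psme2 and lies outside the comparisons above. Its log2 intensity was 6.17, 5.85 and 6.12 on the WT arrays, 6.42, 6.54 and 6.62 on the APP-PBS arrays and 6.21, 6.60 and 6.55 on the APP-amylin arrays, so that all transgenic arrays lay above WT. The difference from WT was 0.48 ± 0.12 log2 (SE) in APP-PBS (limma p adjusted over all probe sets, 0.0779) and 0.41 ± 0.12 in APP-amylin (adjusted p = 0.172). The probe set that names Psme2 alone gave 0.10 ± 0.08 in APP-PBS. The probe set was picked out because it shows a signal above the WT arrays in data not used in the comparisons. Which of both genes the signal belongs to cannot be told apart here.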

How the results depend on the processing

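Psmb8 kept a higher mean in APP-PBS than in WT under all 17 alternatives, and the direction of the inducible medians held in all of them. Every APP-PBS array of Psmb8 lay above every WT array, so leaving out an array could not reverse its sign. Several alternatives, such as the other prior and the replicate block, change only the spread. They left the inducible median of APP-PBS against WT at 0.17, so they are no check of its direction. With 3 arrays a group the largest member difference that did not pass was 0.21 log2 in APP-PBS against WT. In APP-amylin against WT it was 0.59 log2 (Psmb8). The causes of the changes listed here were not tested.

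Genes called in APP-PBS against WT numbered 1710, and 863 to 1779 when 1 array was left out (863, 1126 and 996 without WT replicates 1, 2 and 3, and 969 without APP-PBS replicate 3). In APP-amylin against WT there were 1039, and 447 to 1086 with 1 array left out (447, 602 and 596 without WT replicates 1, 2 and 3, 548 without APP-amylin replicate 3). In APP-amylin against APP-PBS the 1 call became 0 with only the 2 groups fitted and 0 with the replicate block, and 0 to 7 with 1 array left out.

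Members called in APP-PBS against WT were 2 after repeated quantile normalization (8.38% of all genes were called), 2 of 49 without the lowest 25% of genes (12.3%) and 3 with array weights (11.5%), and 0 to 1 with 1 array left out. Psmb2 passed after repeated quantile normalization (adjusted p = 0.0476) and without APP-PBS replicate 3 (0.0434). Psmf1 passed without the lowest 25% (0.0484), with weights (0.0463) and without WT replicate 2 (0.0498), and Psmd5 with weights (0.0281) and without APP-PBS replicate 2 (0.0498). Psmb8 did not pass without WT replicates 1 and 2 or APP-PBS replicates 2 and 3, left out singly. In APP-amylin against WT 1 member was called without the lowest 25% (8.06% of genes were called), 1 with the trended and robust prior (6.22%), 1 with weights (6.77%), 1 with the replicate block (5.31%), and 0 to 1 with 1 array left out.

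With 1 array left out the inducible median was 0.13 to 0.20 in APP-PBS against WT, -0.099 to -0.038 in APP-amylin against APP-PBS and 0.067 to 0.13 in APP-amylin against WT. The constitutive median in APP-PBS against WT was 0.052 with quantile normalization and 0.012 to 0.026 with 1 array left out. In APP-amylin against APP-PBS it was 0.012 with quantile normalization, 0.057 with centring, 0.046 with weights and 0.032 to 0.054 with 1 array left out, and in APP-amylin against WT 0.056 with weights and 0.054 to 0.080 with 1 array left out.

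In APP-PBS against WT 20 of 31 constitutive subunits had a higher mean, and 24 did with quantile normalization repeated. Not all members that changed sign are therefore listed here. Among the members followed singly through the alternatives, and the catalytic pairs, the values that changed sign were small. In APP-PBS against WT these were Psmb7 (0.036 with quantile normalization, -0.039 to 0.014 with 1 array left out), Psmd11 (-0.043 to 0.0030) and Psmb10 minus Psmb7 (-0.079 to 0.034). In APP-amylin against APP-PBS they were Psmb7 (-0.067 to 0.0048), Psmf1 (-0.0074 with weights, -0.0064 to 0.041) and Psmb9 minus Psmb6 (-0.088 to 0.016), and in APP-amylin against WT Psme2 (-0.026 to 0.099) and Psme3 (-0.0031 to 0.057).

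Same-numbered arrays of the groups were not shown to be pairs: the correlation of their deviations from the group means was 0.06 to 0.18 for APP-PBS and WT, 0.10 to 0.13 for the transgenic groups and -0.06 to 0.14 for APP-amylin and WT. With the replicate block 1638, 0 and 1059 genes were called in the 3 comparisons.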
